A study of Mus musculus with 10 samples.

Results

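The genes described here encode the chaperones of the endoplasmic reticulum (ER) and the sensors, transcription factors and targets of the unfolded protein response (UPR). The set was a list of 38 gene symbols, and every row of the expression table whose Entrez gene ID belonged to a listed symbol was taken. All 38 genes had a row among the 16475 gene rows. For description they were divided by the regulator best known for each gene: 15 in the ATF6 arm, 14 in the XBP1 arm and 9 in the PERK-ATF4 arm, although several genes answer to more than 1 regulator.

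RNA came from kidney cortex from which glomeruli had been depleted, taken from mice of the BKS strain at 24 weeks of age and hybridised to Affymetrix Mouse Genome 430 2.0 arrays. The diabetic group was 5 db/db mice, which carry the mutated leptin receptor gene on both chromosomes, lack signalling through the long form of the receptor and become obese and diabetic. The controls were 5 non-diabetic db/m littermates, which carry 1 mutated copy. The labels name no treatment, and the sex of the mice is not stated there. Mice are called db/m 1 to 5 and db/db 1 to 5 after the numbers in their labels. All values are log2 levels, and a change is db/db minus db/m on that scale with its standard error (SE). A gene was called higher or lower where the p-value of limma's moderated test, adjusted by Benjamini-Hochberg over all 16475 genes, was under 0.05.

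Proteins that enter the secretory pathway are folded, glycosylated and disulphide-bonded in the ER lumen by abundant chaperones and oxidoreductases. When client proteins exceed this capacity, 3 membrane sensors respond. ATF6 moves to the Golgi and is cut to free a transcription factor for chaperone genes. IRE1α (Ern1) splices Xbp1 mRNA, whose product drives genes of folding and ER-associated degradation. PERK (Eif2ak3) phosphorylates eIF2α, which slows translation while favouring that of ATF4, a factor also reached by other eIF2α kinases in the integrated stress response. Proximal tubule cells, which make up most of the renal cortex, carry large amounts of membrane transporters and endocytic receptors that pass through the ER.

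The DNA elements through which ATF6 and XBP1 act are shown first because they mark which members share a known route of control. RefSeq promoter windows on mouse build GRCm38.p6, 250 bases before to 50 bases after the start of transcription, were found for 34 of the 38 genes (not for Atf6, Derl1, Hyou1 and Manf). The ER stress response element, ERSE (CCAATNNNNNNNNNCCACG, searched on both strands), was present in 9 of the 34 windows (26.5%) and in 39 of all 32851 windows of the table (0.119%). By arm, it was in 6 of 12 ATF6 arm windows, 3 of 13 XBP1 arm windows and 0 of 9 PERK-ATF4 arm windows. ERSE-II (ATTGGNCCACG) was in 2 of 34 (5.88%), Dnajb11 and Herpud1, against 12 of the table (0.0365%). The C/EBP-ATF composite site read by ATF4 and CHOP (TGATGCAA) was in 3 of 34 (8.82%), Atf3, Chac1 and Herpud1, against 294 of the table (0.895%). The UPRE core (TGACGTGG) was in 0 of 34 against 222 of the table (0.676%). ERSE and ERSE-II both end in CCACG but were not found overlapping. These are letter matches and not measured binding. The arms were set by the regulator best known for each gene, so the shares by arm do not test that control independently. The windows of 8 genes whose expression is described below, cut to 30 bases on each side of the matches and written 5′ to 3′ on the gene's strand with the match in capitals, read:
Hspa5 (chr2:34771995-34772073, plus strand): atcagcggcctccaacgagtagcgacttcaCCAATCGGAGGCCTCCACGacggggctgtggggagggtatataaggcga
Hsp90b1 (chr10:86705503-86705686, minus strand): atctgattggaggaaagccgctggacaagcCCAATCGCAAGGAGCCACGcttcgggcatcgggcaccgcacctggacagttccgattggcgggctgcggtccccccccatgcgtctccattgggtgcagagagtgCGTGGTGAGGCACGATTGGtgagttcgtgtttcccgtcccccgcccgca
Pdia6 (chr12:17266461-17266539, plus strand): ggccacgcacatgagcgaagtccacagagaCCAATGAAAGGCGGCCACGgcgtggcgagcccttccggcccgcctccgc
Creld2 (chr15:88819490-88819568, plus strand): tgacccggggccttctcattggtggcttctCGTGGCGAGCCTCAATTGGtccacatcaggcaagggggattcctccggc
Derl3 (chr10:75893212-75893290, plus strand): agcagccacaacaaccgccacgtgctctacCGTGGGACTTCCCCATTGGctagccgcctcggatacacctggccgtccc
Dnajc3 (chr14:118937797-118937875, plus strand): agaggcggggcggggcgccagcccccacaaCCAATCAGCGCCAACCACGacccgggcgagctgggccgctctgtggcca
Herpud1 (chr8:94386287-94386417, plus strand): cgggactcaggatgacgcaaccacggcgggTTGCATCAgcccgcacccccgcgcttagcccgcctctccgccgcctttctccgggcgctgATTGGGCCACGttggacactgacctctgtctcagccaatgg
Chac1 (chr2:119351019-119351086, plus strand): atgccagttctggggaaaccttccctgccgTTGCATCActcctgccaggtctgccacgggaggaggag
The first 6 hold ERSE, and Hsp90b1 has it on each strand. In Hspa5 the element lay 65 to 47 bases before the start, in Pdia6 98 to 80, in Dnajc3 105 to 87, in Creld2 126 to 108 and in Derl3 156 to 138. Herpud1 carries ERSE-II 52 to 42 bases before its start and, upstream of that, the C/EBP-ATF site on the opposite strand, and Chac1 carries the C/EBP-ATF site alone. Calr, Canx and Syvn1 also held ERSE.

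The arrays were alike except for db/db 1. Its correlation over all genes with the other 9 arrays was 0.938 to 0.962, while the lowest among all other pairs was 0.9848. Array medians ran from 8.46 to 8.66. Proximal tubule markers (Slc34a1, Lrp2, Cubn, Slc5a2, Slc5a12 and Aqp1) averaged 12.93 to 13.12 in db/m, 13.16 to 13.19 in db/db 2 to 5 and 12.5 in db/db 1. None of the 6 was called in either fit. Without db/db 1, 3 of them were higher in every db/db mouse than in every db/m mouse, against 1279 of all 16475 genes. Lepr was dim in both groups (4.56 ± 0.09 in db/m and 4.48 ± 0.14 in db/db, SD, n = 5 each), so its level does not test the genotype. In whole tissue, fewer cells of a type and less RNA per cell cannot be told apart.

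In db/db cortex the ER chaperone and degradation genes of the ATF6 and XBP1 arms lay mostly below db/m, while the PERK-ATF4 arm did not share that direction. Among all 10 mice, 4 of the 38 genes fell: Pdia5, Dnajb11, Dnajc3 and Edem1. None rose, although 19 of 38 had an unadjusted limma p under 0.05, against 3547 of all 16475 genes. Over all genes, 3.54% were called lower and 2.96% higher. The sign was negative for 28 of 38 genes, against 9370 of all 16475 genes. The median change was −0.22, against −0.03 over all genes. In 5 of 38 genes (the same 4 and P4hb) every db/db mouse was below every db/m mouse, a separation seen in 5.85% of all genes.

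With db/db 1 left out, 14 of the 38 genes fell and 1, Herpud1, rose. The 14 were Hspa5, Hsp90b1, Pdia5, Pdia6, Sdf2l1, Creld2, Manf, Xbp1, Dnajb11, Dnajc3, Edem1, Edem2, Derl3 and Chac1. The background without that mouse was 5.93% of genes lower and 6.84% higher. The remaining 4 db/db mice were below all db/m mice in 17 of 38 genes, against 7.61% of all genes. The count of members called lower therefore rested on db/db 1 more than on any other mouse: leaving out each mouse in turn gave 2 to 14, with 14 without db/db 1 and 2 without any of db/m 2, db/m 3, db/m 4, db/m 5, db/db 2 or db/db 5.

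**Figure D1:**
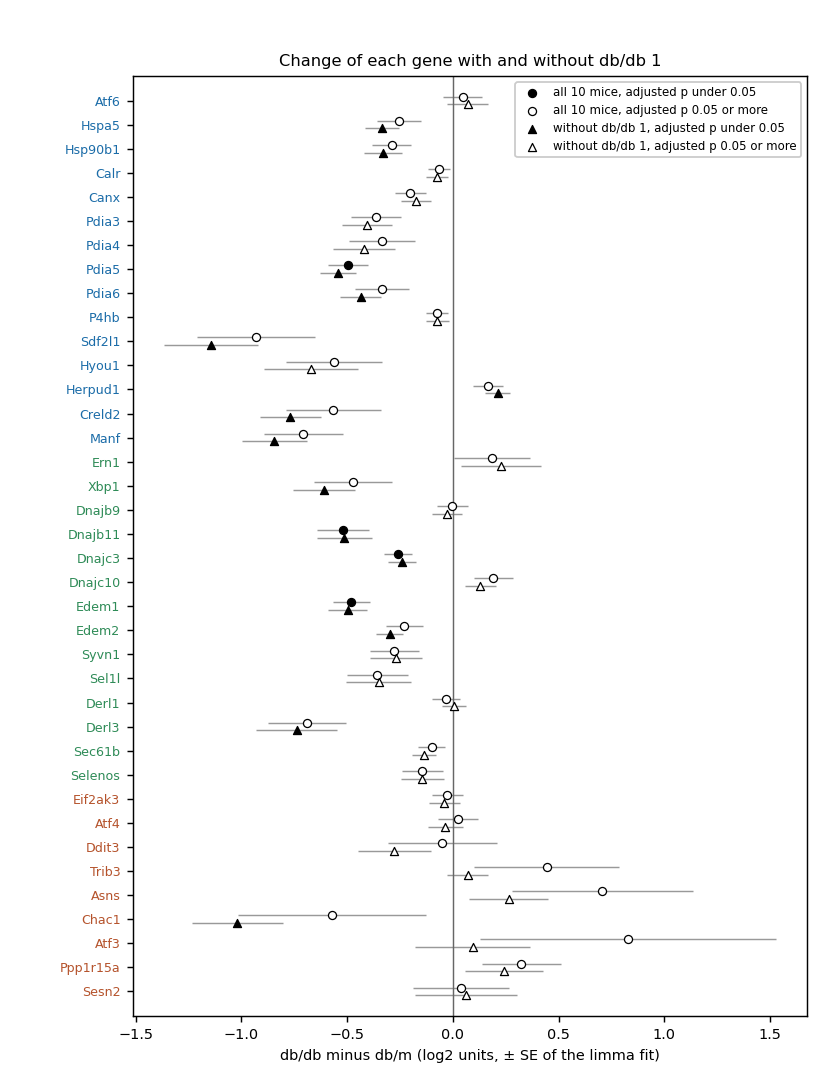
Change of each of the 38 genes (db/db minus db/m, log2 units, ± SE of the limma fit) in all 10 mice (circles) and without db/db 1 (triangles), with filled symbols for an adjusted p under 0.05. Filled circles mark 4 genes and filled triangles 15, and of those triangles only that of Herpud1 lies right of 0.

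In the ATF6 arm, 1 of 15 genes fell in all mice and 13 of 15 had a negative sign, with a median change of −0.33. Without db/db 1, 7 fell, 1 rose and the median was −0.40. The disulphide isomerase Pdia5, which is known to act on ATF6 itself, was the gene that fell in both fits. It was at 10.33, 10.44, 10.32, 10.57 and 10.45 in db/m 1 to 5 and at 10.12, 10.08, 9.72, 9.85 and 9.86 in db/db 1 to 5. The groups did not overlap, and db/db 1 and 2 were the nearest to the controls. The change of Pdia5 was −0.50 ± 0.09 (1.41-fold lower, adjusted p = 0.0135), and the call held whichever mouse was left out (highest adjusted p 0.0387, without db/m 4).

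Hspa5, which encodes BiP, the HSP70 of the ER lumen and the chaperone that holds the sensors inactive, was at 13.11, 13.02, 13.15, 13.38 and 13.25 in db/m 1 to 5. It was at 13.24 in db/db 1 and at 12.91, 12.79, 12.87 and 12.82 in db/db 2 to 5. The first db/db mouse sat within the control range and the other 4 lay below it. The change of Hspa5 was −0.26 ± 0.10 in all mice (adjusted p = 0.187) and −0.33 ± 0.08 without db/db 1 (1.26-fold lower, adjusted p = 0.0231). That second call was lost when db/db 3, db/db 4 or db/db 5 was left out as well (highest adjusted p 0.0634).

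Hsp90b1, encoding GRP94, the HSP90 of the ER, was at 12.45, 12.40, 12.53, 12.76 and 12.64 in db/m 1 to 5 and at 12.44, 12.25, 12.30, 12.30 and 12.06 in db/db 1 to 5. Again only db/db 1 reached the control range. Its change was −0.29 ± 0.09 in all mice (adjusted p = 0.1003) and −0.33 ± 0.09 without db/db 1 (adjusted p = 0.0397), a call that survived only the further omission of db/m 2.

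The largest changes in the arm were those of small resident ER proteins. Sdf2l1, a cofactor of ER HSP40 chaperones, was at 8.56, 9.27, 8.82, 9.51 and 9.19 in db/m 1 to 5 and at 8.98, 8.21, 7.98, 8.16 and 7.36 in db/db 1 to 5. Manf, a BiP-binding protein that can also be secreted, was at 11.90, 12.10, 12.03, 12.56 and 12.42 in db/m 1 to 5 and at 12.04, 11.66, 11.16, 11.33 and 11.28 in db/db 1 to 5. Creld2, an ER disulphide isomerase, was at 11.72, 12.07, 12.03, 12.40 and 12.35 in db/m 1 to 5 and at 12.36, 11.56, 11.17, 11.23 and 11.41 in db/db 1 to 5. In all 3 genes db/db 1 lay inside the control range and db/db 2 to 5 lay below every control. Sdf2l1 changed by −1.14 ± 0.22 without db/db 1 (2.21-fold lower, adjusted p = 0.00979), and the value in all mice was −0.93 ± 0.28 (adjusted p = 0.0776). For Manf the values were −0.84 ± 0.15 (1.79-fold lower, adjusted p = 0.00668) and −0.71 ± 0.19 (adjusted p = 0.051). For Creld2 they were −0.77 ± 0.14 (1.70-fold lower, adjusted p = 0.0079) and −0.57 ± 0.23 (adjusted p = 0.177). With db/db 1 left out, these 3 calls held when any further mouse was removed.

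Without db/db 1, the protein disulphide isomerases Pdia3, Pdia4, Pdia5 and Pdia6 changed by similar amounts (−0.40, −0.42, −0.55 and −0.44), though not all were called. P4hb and the lectin chaperones changed less. Pdia6, an isomerase known to regulate the sensors, was at 11.73, 11.59, 11.77, 12.04 and 11.95 in db/m 1 to 5 and at 11.88, 11.44, 11.40, 11.42 and 11.26 in db/db 1 to 5. It was lower by −0.44 ± 0.10 without db/db 1 (1.35-fold, adjusted p = 0.0176) and the value in all mice was −0.33 ± 0.13 (adjusted p = 0.162). Here too db/db 1 stood with the controls. Pdia3, which works with the lectin chaperones, changed by −0.40 ± 0.12 without db/db 1 (adjusted p = 0.0529), and Pdia4 by −0.42 ± 0.15 (adjusted p = 0.0937), so neither passed. The ER-resident chaperone Hyou1, a nucleotide exchange factor of BiP, had −0.67 ± 0.22 (adjusted p = 0.0811). Calreticulin (Calr) and calnexin (Canx), the lectin chaperones of glycoproteins, had −0.08 ± 0.05 and −0.18 ± 0.07 (adjusted p = 0.416 and 0.147). P4hb, the founding isomerase of the family and a subunit of prolyl hydroxylase, was at 13.31 to 13.44 in db/m and 13.26 to 13.31 in db/db. Its groups separated by a very small margin, and with −0.08 ± 0.05 in all mice it was not called (adjusted p = 0.469).

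Herpud1, a membrane component of the degradation complex that carries both ERSE-II and the C/EBP-ATF site, went against the rest of the arm. It was at 13.06, 13.13, 13.16, 13.22 and 13.28 in db/m 1 to 5, at 13.16 in db/db 1 and at 13.38, 13.36, 13.39 and 13.40 in db/db 2 to 5. The last 4 mice lay close together just above the controls. The change without db/db 1 was 0.21 ± 0.06 (1.16-fold higher, adjusted p = 0.0490). This call stood at the threshold and survived only the further omission of db/m 5, and it was lost with arrays centred on their medians or quantile-normalised again. Atf6 itself had a change of 0.05 ± 0.09 (adjusted p = 0.82).

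**Figure D2:**
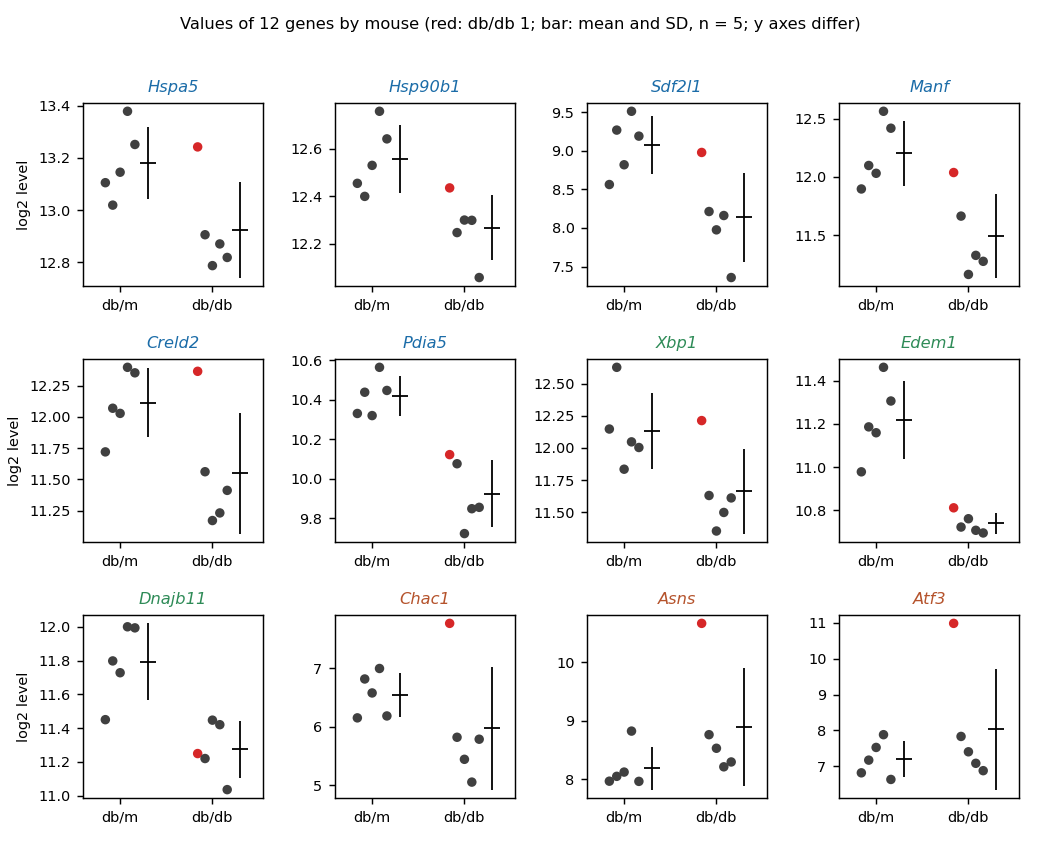
Log2 level of 12 genes in each mouse, db/m left and db/db right, with db/db 1 in red and the mean ± SD (n = 5) beside each group; the y axes differ. In Pdia5, Edem1 and Dnajb11 the 5 db/db mice lie below all db/m mice, in Hspa5, Hsp90b1, Sdf2l1, Manf, Creld2, Xbp1 and Chac1 only db/db 2 to 5 do, and in Asns and Atf3 db/db 1 lies far above all other mice.

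In the XBP1 arm, 3 of 14 genes fell in all mice, 12 of 14 had a negative sign and the median was −0.25. Without db/db 1, 6 fell, none rose, and the median was again −0.25. Edem1, a mannosidase-like protein that sends misfolded glycoproteins to degradation, was at 10.98, 11.19, 11.16, 11.46 and 11.31 in db/m 1 to 5. In db/db 1 to 5 it was at 10.81, 10.72, 10.76, 10.71 and 10.69. The db/db values, db/db 1 included, lay within a narrow band below all controls. Edem1 changed by −0.48 ± 0.09 (1.39-fold lower, adjusted p = 0.0133), and the call held in each of the 10 fits that left out 1 mouse (highest adjusted p 0.037).

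The ER HSP40 genes differed among themselves. Dnajb11, a BiP cofactor for folding whose window holds ERSE-II, was at 11.45, 11.80, 11.73, 12.0003 and 11.99 in db/m 1 to 5 and at 11.25, 11.22, 11.45, 11.42 and 11.04 in db/db 1 to 5. The highest db/db mouse, db/db 3, was just below the lowest control, db/m 1. Dnajb11 changed by −0.52 ± 0.12 (1.43-fold lower, adjusted p = 0.0352), but the call was lost without db/m 2, db/m 3, db/m 4, db/m 5, db/db 2 or db/db 5 (highest adjusted p 0.0838).

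Dnajc3, encoding p58IPK, an inhibitor of eIF2α kinases and BiP cofactor, was at 11.74, 11.68, 11.69, 11.87 and 11.81 in db/m 1 to 5 and at 11.41, 11.49, 11.57, 11.57 and 11.45 in db/db 1 to 5. The groups separated with db/db 1 the lowest of all mice. Its change was −0.26 ± 0.07 (1.20-fold lower, adjusted p = 0.0441), and the call was lost when any mouse other than db/db 1 was left out (highest adjusted p 0.103). Dnajb9, encoding ERdj4, which is known as a direct XBP1 target and a repressor of IRE1α, averaged 11.97 in both groups (SD 0.12 in db/m and 0.06 in db/db; adjusted p = 0.986). Dnajc10, an ER disulphide reductase, had 0.19 ± 0.09 (adjusted p = 0.254).

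Xbp1, counted here as total message since these values do not separate the spliced form, was at 12.15, 12.63, 11.83, 12.05 and 12.004 in db/m 1 to 5. It was at 12.21 in db/db 1 and at 11.63, 11.35, 11.50 and 11.61 in db/db 2 to 5. Among the controls db/m 2 stood high, and db/db 1 was above 4 of the 5 controls. The change was −0.47 ± 0.18 in all mice (adjusted p = 0.166) and −0.61 ± 0.15 without db/db 1 (1.53-fold lower, adjusted p = 0.0236). That call was lost when db/db 3 or db/db 4 was also left out (highest adjusted p 0.0677). Ern1, the sensor, had 0.18 ± 0.18 (adjusted p = 0.603).

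Of the degradation genes, Edem2 and Derl3 were not called in all mice and fell in the fit without db/db 1. Edem2, a mannosidase, was at 10.55, 10.61, 10.56, 10.58 and 10.64 in db/m 1 to 5 and at 10.63, 10.22, 10.44, 10.28 and 10.22 in db/db 1 to 5. Derl3, a derlin of the retrotranslocation complex, was at 7.14, 8.18, 7.36, 7.83 and 7.92 in db/m 1 to 5 and at 7.19, 7.002, 6.94, 7.02 and 6.82 in db/db 1 to 5. In Edem2 db/db 1 matched the controls, whereas in Derl3 it lay between db/m 1 and db/m 3 at the bottom of a wide control range. Edem2 changed by −0.30 ± 0.06 (1.23-fold lower, adjusted p = 0.015) without db/db 1 and had −0.23 ± 0.09 (adjusted p = 0.157) in all mice. Derl3 changed by −0.74 ± 0.19 (1.67-fold lower, adjusted p = 0.0338) without db/db 1 and had −0.69 ± 0.18 (adjusted p = 0.0534) in all mice; the call was lost on omitting db/m 4, db/m 5 or any further db/db mouse. With db/db 1 kept, Derl3 was also called when db/m 1 was left out (adjusted p = 0.0228). Sel1l and Syvn1, which form the core ubiquitin ligase HRD1, had −0.36 ± 0.14 and −0.28 ± 0.12 in all mice (adjusted p = 0.181 and 0.2). The remaining 3, Derl1, Selenos and the translocon subunit Sec61b, had changes from −0.14 to −0.03 and adjusted p of 0.409 or more.

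In the PERK-ATF4 arm no gene of 9 was called in all mice, none had an unadjusted p under 0.05, and the median change was 0.04 with 6 positive and 3 negative signs. In this arm db/db 1 stood apart from the other mice. It was the highest of 10 in 7 of 9 genes, against 1 of 14 XBP1 arm genes and 0 of 15 ATF6 arm genes. Over all 16475 genes the same mouse was the highest in 3285 and the lowest in 6851, so it also stood apart outside this arm. Over all genes it was thus more often the lowest, whereas in this arm it was the lowest in 0 of 9. Among the 39 further ATF4 targets described below it was the highest in 20. Atf3, a stress-induced repressor, was at 6.82, 7.17, 7.53, 7.88 and 6.63 in db/m 1 to 5, at 10.98 in db/db 1 and at 7.83, 7.40, 7.08 and 6.88 in db/db 2 to 5. Asns, asparagine synthetase, was at 7.97, 8.05, 8.12, 8.83 and 7.97 in db/m 1 to 5, at 10.67 in db/db 1 and at 8.76, 8.53, 8.21 and 8.30 in db/db 2 to 5. Trib3, a pseudokinase induced by ATF4 and CHOP, was at 6.39 to 6.61 in db/m, at 8.45 in db/db 1 and at 6.41 to 6.87 in the other db/db mice. The first db/db mouse thus exceeded the next highest mouse by 3.10 for Atf3, 1.84 for Asns and 1.58 for Trib3, and the other 4 overlapped the controls. Without it the changes were 0.09 ± 0.27, 0.26 ± 0.19 and 0.07 ± 0.10, none called (adjusted p = 0.878, 0.424 and 0.717).

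Ddit3, encoding the pro-apoptotic factor CHOP, was at 11.24, 10.78, 11.43, 11.62 and 10.83 in db/m 1 to 5, at 12.04 in db/db 1 and at 11.05, 10.75, 10.92 and 10.89 in db/db 2 to 5. The mouse db/db 1 was again the highest. The change was −0.05 ± 0.26 in all mice (adjusted p = 0.932) and −0.28 ± 0.17 without it (adjusted p = 0.352).

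Chac1, a glutathione-degrading enzyme downstream of ATF4 and CHOP, was the arm's gene that fell in the fit without db/db 1. It was at 6.15, 6.81, 6.57, 6.99 and 6.18 in db/m 1 to 5, at 7.76 in db/db 1 and at 5.82, 5.44, 5.05 and 5.78 in db/db 2 to 5. The first db/db mouse lay above all controls and the other 4 below them. The change without db/db 1 was −1.02 ± 0.21 (2.03-fold lower, adjusted p = 0.0137). This call held when any further mouse was removed but was lost in 1 of the alternative fits described below. In all mice the change was −0.57 ± 0.44 (adjusted p = 0.506). The mean level of Chac1 was low, at percentile 30.2 of all genes.

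The remaining members of the arm showed no call in either fit. Eif2ak3 had −0.03 ± 0.07 (adjusted p = 0.87) and Atf4 0.02 ± 0.09 (adjusted p = 0.911). PERK acts by phosphorylation and ATF4 is controlled largely through translation, and the mRNA levels of their own genes read neither step. Ppp1r15a, encoding GADD34, the phosphatase subunit that reverses eIF2α phosphorylation, had 0.32 ± 0.19 (adjusted p = 0.35). Sesn2, a stress-induced regulator of mTORC1, had 0.04 ± 0.23 (adjusted p = 0.942), and its highest mouse was the control db/m 5 at 10.68, with all others at 9.36 to 10.02.

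**Figure D3:**
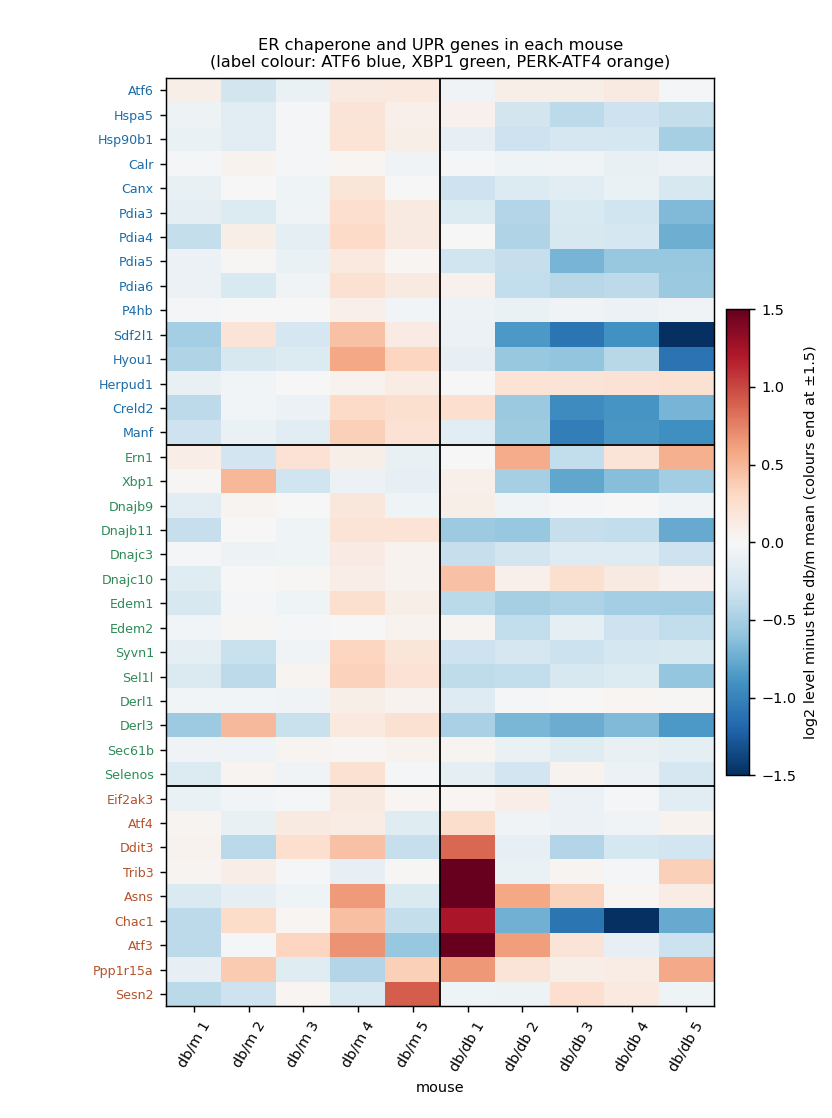
Log2 level of the 38 genes in each of the 10 mice minus the db/m mean of the gene, in colour from −1.5 (blue) to 1.5 (red), with larger differences shown at the end colours; rows are ordered by arm. Most ATF6 and XBP1 arm rows are blue in db/db 2 to 5 and red in db/m 4, while the PERK-ATF4 rows are red mainly in db/db 1.

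Controls varied in the chaperone genes as well. Of the 38 genes, 21 had their highest value in db/m 4, among them 12 of 15 in the ATF6 arm and 8 of 14 in the XBP1 arm. The lowest value was in db/db 5 for 12 genes and in db/db 3 for 8. Relative to the db/m mean, the median ATF6 arm gene was at −0.11, −0.04, −0.07, 0.20 and 0.12 in db/m 1 to 5. In db/db 1 to 5 it was at −0.08, −0.34, −0.26, −0.30 and −0.56. Only db/db 1 fell within the control range by this measure. For the XBP1 arm the controls were at −0.14 to 0.13, db/db 1 at −0.17 and db/db 2 to 5 at −0.28 to −0.20, and for the PERK-ATF4 arm db/db 1 was at 0.86 while all other mice were at −0.18 to 0.13.

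Set against the windows shown above, 2 of the 11 genes with ERSE or ERSE-II and 2 of the 23 genes with a window but neither element were called lower in all mice, where 3.54% of all genes were. Without db/db 1, where 5.93% of all genes were lower and 6.84% higher, 7 of the 11 were called lower and 1 higher. Calr, Canx and Syvn1 were not called. Of the 23, 6 were called lower in that fit: Pdia5, Sdf2l1, Xbp1, Edem1, Edem2 and Chac1. Calls thus occurred with and without the elements within these windows.

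Further genes of the pathway came from 6 lists that do not overlap with the 38. Among 17 measured UPR sensors and regulators, 1 rose and 2 fell in all mice, where 2.96% of all genes were higher and 3.54% lower. Creb3l3, an ER-membrane transcription factor best known in liver, rose from 6.17 ± 0.12 to 6.76 ± 0.19 (change 0.59 ± 0.10, adjusted p = 0.0102). Atf6b, the paralogue of Atf6, fell from 10.59 ± 0.06 to 10.08 ± 0.16 (−0.50 ± 0.08, adjusted p = 0.00844). Both calls held whichever mouse was left out. Ppp1r15b, the constitutive eIF2α phosphatase subunit, fell by 0.47 ± 0.11 on the log2 scale (adjusted p = 0.0305), a call lost in 7 of 10 fits that left out 1 mouse (highest adjusted p 0.0844, without db/m 3).

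In lists of the ER machinery, genes were called lower in all mice at about the rate over all genes (3.54%), and none was called higher. Of 23 folding and redox genes 1 fell, Serp1, a translocon-associated protein (−0.33 ± 0.07, adjusted p = 0.0267), and of 29 translocation and glycosylation genes 1 fell, Mogs, the first glucosidase of N-glycan trimming (−0.36 ± 0.09, adjusted p = 0.0367). Leaving out 1 mouse ended the call of Serp1 in 7 of 10 fits and that of Mogs in 6 of 10. None of 17 further degradation genes was called by limma in all mice. An unadjusted p under 0.05 was found in 4 of them, against 3547 of all 16475 genes. The nearest was Ubxn4, an ER anchor of the p97 ATPase (−0.28 ± 0.08, adjusted p = 0.063). It was called lower without db/db 1 (−0.32 ± 0.07, adjusted p = 0.0158). In that fit 1 folding and redox gene, 3 translocation and glycosylation genes and 1 degradation gene were called lower, and none higher. Over all genes 5.93% were lower there. In all mice, 25 of 29 translocation and glycosylation genes and 15 of 17 degradation genes had a negative sign, against 9370 of all 16475 genes. Their median changes were −0.08 and −0.12, against −0.03 over all genes.

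Among 39 measured ATF4 targets, 3 rose and 1 fell in all mice, where 2.96% of all genes were higher and 3.54% lower. Of the 39, 27 had a positive sign, against 7105 of all 16475 genes. The median change was 0.15, against −0.03 over all genes. Slc7a5, the large neutral amino acid transporter LAT1, was at 6.74 to 7.31 in db/m and 7.63 to 8.47 in db/db and rose by 1.04 ± 0.18 (2.05-fold, adjusted p = 0.00916). Lars1, leucyl-tRNA synthetase, rose by 0.45 ± 0.07 (adjusted p = 0.00534). These calls held in all 10 fits that left out a mouse. Phgdh, the entry enzyme of serine synthesis, rose by 0.44 ± 0.10 (adjusted p = 0.0305) but lost its call in 7 of those fits. Slc1a4, a neutral amino acid exchanger, fell by 1.25 ± 0.30 on the log2 scale (2.38-fold, adjusted p = 0.0362); it was at 9.14 to 9.30 in db/m, 9.17 in db/db 1 and 7.24 to 8.07 in db/db 2 to 5, so that db/db 1 matched the controls, and the call was lost when any mouse other than db/db 1 was left out. Without db/db 1, 8 ATF4 targets rose and 2 fell, where 6.84% of all genes were higher and 5.93% lower. The median was then 0.06, against −0.006 over all genes. None of 9 ER stress death genes was called by limma in all mice. An unadjusted p under 0.05 was found in 3 of them, against 3547 of all 16475 genes. The nearest to a call was Txnip (0.48 ± 0.14, adjusted p = 0.0747).

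Other measures moved with the same mice. In db/db 1, the mouse with the highest PERK-ATF4 levels, 6 tubular injury genes averaged 12.8, against 7.39 to 8.57 in db/m and 7.89 to 9.39 in db/db 2 to 5. The 8 macrophage markers averaged 11.7 in db/db 1, 8.75 to 8.92 in db/m and 7.84 to 9.61 in db/db 2 to 5, and the 10 immediate early genes 10.6, 8.95 to 9.85 and 9.49 to 9.87. All 4 measured neutrophil markers and all 6 fibroblast markers were highest in db/db 1. The neutrophil markers averaged 11.9 there, 6.22 to 7.20 in the controls, 8.84 and 9.002 in db/db 2 and 3, and 6.53 and 6.36 in db/db 4 and 5. Fibroblast markers averaged 11.4 in db/db 1, 9.13 to 9.29 in db/m and 8.52 to 9.75 in db/db 2 to 5. Within db/db 2 to 5 the lists of blood and connective tissue cells were uneven, with macrophage markers above the controls in db/db 2 and below them in db/db 3 to 5. Their part in the PERK-ATF4 values was not tested.

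Cytosolic heat shock genes encode the chaperones of the neighbouring compartment. Of 7 measured, 4 fell (Hspa1a, Hspa1b, Hsph1 and Dnaja1), and the same 4 fell without db/db 1. Over all genes 3.54% were lower in all mice and 5.93% without db/db 1. Hspa1a, the inducible HSP70, had the largest change of the list, −2.40 ± 0.41 (adjusted p = 0.00914). The list mean was 11.3 to 12.3 in db/m and 10.6 to 10.9 in db/db, db/db 1 included, and like the ATF6 arm it was highest in db/m 4. Its part in the chaperone values was not tested.

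Plasma cells are rich in ER chaperones, so their markers stand beside the chaperone genes. The 6 measured markers of B and plasma cells averaged 6.05 to 6.47 in db/m and 5.79 to 6.90 in db/db. None was called in all mice, and 1, Jchain, was lower without db/db 1, where 5.93% of all genes were lower. Jchain, the joining chain of secreted antibodies, was at 9.63, 9.72, 10.62, 10.0002 and 10.42 in db/m 1 to 5 and at 9.83, 9.76, 8.59, 8.43 and 8.37 in db/db 1 to 5. The last 3 mice lay below all controls, and the change was −1.29 ± 0.31 without db/db 1 (adjusted p = 0.0247). Mzb1, an ER chaperone of plasma cells, had −0.09 ± 0.18 in that fit (adjusted p = 0.826), and Ms4a1 and Pou2af1 were dim at 4.77 and 4.15 in db/m. Markers of podocytes, which glomerular depletion should reduce, averaged 8.65 to 8.995 in db/m and 9.05 to 9.44 in db/db. Of these, 3 of 5 were called higher in all mice and 5 of 5 without db/db 1. Over all genes 2.96% were higher in all mice and 6.84% without db/db 1. The 6 markers of distal tubule and collecting duct averaged 11.73 to 12.03 in db/m, 10.99 in db/db 1 and 11.98 to 12.24 in db/db 2 to 5. None of them was called by limma in all mice, and none had an unadjusted p under 0.05 there. Without db/db 1, where 6.84% of all genes were higher, 3 (Slc12a3, Calb1 and Aqp2) were called higher, with changes of 0.46, 0.39 and 0.57. The part of these cells in the ATF6 and XBP1 arm values was not tested.

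**Figure D4:**
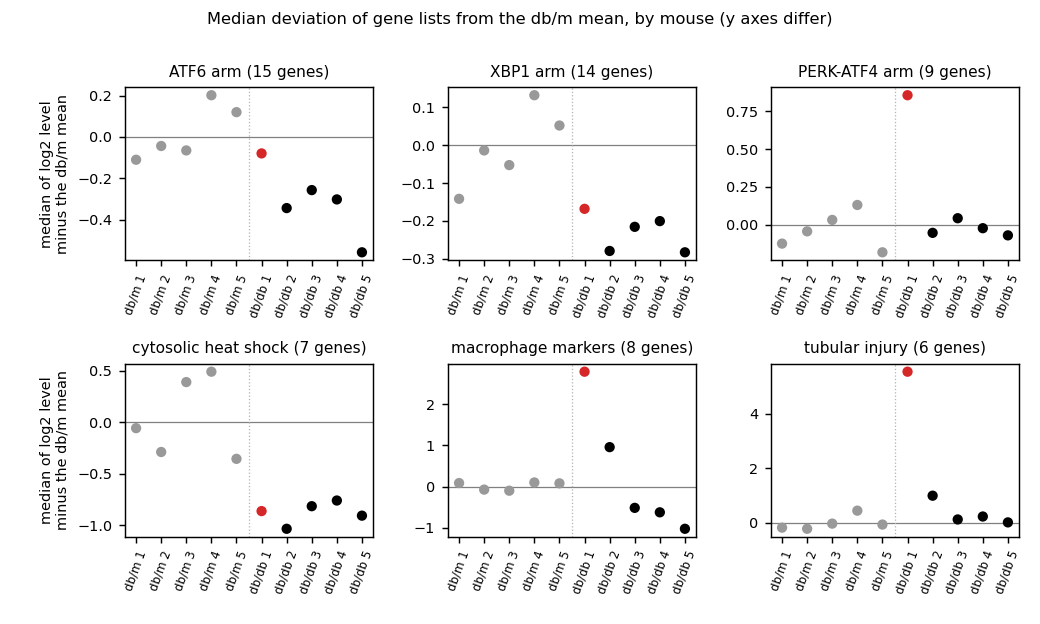
Median over the genes of a list of the log2 level minus the db/m mean, for each mouse (grey db/m, black db/db, red db/db 1), for the 3 arms, cytosolic heat shock genes, macrophage markers and tubular injury genes; the y axes differ. The ATF6 arm is lowest in db/db 5 at −0.56, heat shock genes are at −1.03 to −0.76 in all 5 db/db mice, and db/db 1 is highest for the PERK-ATF4 arm, macrophage markers and injury genes.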

How the data were processed

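Arrays of 10 mice (5 db/m, 5 db/db) were measured. The authors deposited log2 levels per Entrez gene, which the submitters' processing notes attribute to RMA, with neither its version nor the grouping of probes given in the sources used here. The table held 16539 rows, and the 64 control rows were left out. Genes were named through the platform annotation and RefSeq by Entrez ID (15780 of 16475 rows). Limma 3.58.1 in R 4.3.3 (lmFit, eBayes, no trend) compared the groups over all 16475 genes without a low-value filter, in all mice and without db/db 1, two-sided, with Benjamini-Hochberg adjustment and a threshold of 0.05. Promoter motifs were searched with Python and figures were drawn with matplotlib 3.10.9. The fit was tested on simulated data.

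Every member is named. Of each wider list, up to 3 highest and 3 lowest called genes, or else the gene of lowest adjusted p, are named, and marker and state genes with their list. Members, lists and arms were chosen with earlier results of these data known, including that db/db 1 stands apart. Alternatives covered normalisation, centring, a filter on dim genes, prior settings, array weights, thresholds, arm membership, a replicate block and each mouse left out. Array number limits precision. Separate mice were labelled, and no batch is given.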

Additional observations from a re-analysis of the deposited data

Results flagged for a closer look

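In groups of 5 mice, a value was examined where its gap to the nearest other value was over 0.71 of the range of the group. Of 76 gene and group pairs among the 38 genes, 9 met this, 8 of them in db/db 1. For a single pair, chance gives about 1 in 20. The pairs were read on the same arrays and are not independent, so that rate cannot judge the count. The mouse db/db 1 also stood apart over all genes, and whether these genes held an excess of such values was not tested. In the PERK-ATF4 arm db/db 1 was high for Ddit3 (12.04, next 11.05), Trib3 (8.45, next 6.87), Asns (10.67, next 8.76), Chac1 (7.76, next 5.82) and Atf3 (10.98, next 7.83). The same mouse was high among db/db mice for Hspa5 (13.24, next 12.91), where it lay within the range of the controls. It was low for Herpud1 (13.16, next 13.36) and Derl1 (11.48, next 11.65). The ninth value was Asns in the control db/m 4 (8.83, next 8.12). The genes that db/db 1 set apart were measured on 1 array of 1 mouse, and the source of the difference was not tested.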

How the results depend on the processing

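In all mice, the median of the ATF6 arm and that of the XBP1 arm stayed negative under each alternative run. The XBP1 median was −0.10 with 5 genes moved to the ATF6 arm (−0.14 without db/db 1), and the PERK-ATF4 median was −0.03 with arrays centred. A replicate block by mouse number called 180 genes higher, 213 lower and 0 members lower (without db/db 1, 548 and 437 genes, and 0 members higher and 8 lower). Same-numbered mice did not deviate together over all genes (correlations −0.0948 to 0.00599). This cannot show whether they were paired, and the labels state no pairing. Array weights called 1346 genes higher and 1295 lower, with 1 member higher and 15 lower. At an adjusted p of 0.01 there were 132 and 147 genes and 0 members lower (without db/db 1, 466 and 380, and 0 members higher and 5 lower). With a 1.5-fold minimum there were 311 and 264 genes and 0 members lower (without db/db 1, 535 and 337, and 0 and 6). Centring moved the split of all genes from 488 higher and 584 lower to 363 and 751 and the median of all genes from −0.03 to −0.10; with db/db 1 left out it gave 910 and 1309. Centring and repeated quantile normalisation without db/db 1 gave 0 members higher.

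Leaving out each mouse gave 234 to 1127 genes higher and 256 to 977 lower (lowest without db/m 3, highest without db/db 1), and 0 to 1 members higher and 2 to 14 lower. With db/db 1 also out, the ranges were 767 to 1077, 615 to 873 (lowest without db/m 3), 0 to 1 and 9 to 14; the PERK-ATF4 median then ranged from −0.034 (without db/m 5) to 0.062.

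Signs changed only in members never called there: Dnajb9 was 0.027 after repeated quantile normalisation, Atf6 −0.022, Atf4 −0.044 and Sesn2 −0.030 with arrays centred, and Derl1 0.019 and Atf4 −0.069 with array weights. When each mouse was left out, the ranges were −0.035 to 0.058 for Atf4, −0.025 to 0.082 for Atf6, −0.28 to 0.060 for Ddit3, −0.047 to 0.0058 for Derl1, −0.041 to 0.039 for Dnajb9, −0.057 to 0.0076 for Eif2ak3 and −0.064 to 0.26 for Sesn2. The cause of these shifts was not tested. Without db/db 1, alternatives other than the replicate block were added after the data had been seen.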
